A study of Mus musculus with 35 samples.

Results

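The genes described here encode the machinery of MHC class II antigen presentation, and their expression was followed in mouse quadriceps muscle. The set was chosen by name: H2-Aa, H2-Ab1, H2-Eb1, H2-DMa, H2-DMb1, Cd74, Ciita and Cd86. Earlier results of these data were known when it and the gene lists used below were chosen. Counts set beside the share of all genes are therefore descriptive. Of these 8 genes, 7 had an array row annotated to them alone, among 19938 genes with such a row, and each of the 7 had exactly 1. H2-DMb1 was represented only on 1 row shared with another gene, H2-DMb2, so no value is given for it.

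Total RNA from quadriceps of 2-month-old female mice was hybridised to 35 Affymetrix arrays, 1 per mouse, in 4 classes and 2 experiments. The classes were control mice, Mstn-null mice, which lack myostatin, a secreted inhibitor of muscle growth, and mice given 1 dose or 4 doses of ActRIIB-Fc. ActRIIB-Fc joins the ligand-binding part of an activin receptor to an antibody Fc part, circulates in soluble form and captures myostatin and related ligands. Experiment 1 had 3 mice per class, and experiment 2 had 5 mice per class and 8 Mstn-null mice. The labels name neither strain, dose size, dosing interval nor what the controls received. The labels call the arrays biological replicates, so the p-values measure the spread between mice, and the number of arrays limits their precision. Deposited values are on a log2 scale. Array medians were 4.39 to 4.52 in experiment 1 and 6.06 to 6.27 in experiment 2, so levels are set against each other only within an experiment and within a gene. Ranks among all genes of an experiment are given only as a guide to signal level.

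The labels were checked on Mstn and on muscle fibre genes. In experiment 2 the log2 value of Mstn was 7.25 ± 0.49 (SD, n = 8) in Mstn-null mice and 10.03 ± 0.16 (SD, n = 5) in controls. In experiment 1 it was 6.14 ± 0.48 (SD, n = 3) and 7.35 ± 0.50 (SD, n = 3), and the classes did not overlap in either experiment. The fibre genes Acta1 and Ckm had mean log2 values of 14.09 and 13.83 in experiment 2 controls. Array interquartile ranges ran from 2.52 to 2.76 in the Mstn-null arrays of experiment 2 and from 2.80 to 2.87 in its controls. Mstn-null replicates 6, 7 and 8 of experiment 2 stood apart, with interquartile ranges of 2.52 to 2.60 and mean log2 values of 6 endothelial markers of 7.46 to 7.65, against 7.98 to 8.41 in the other 5. Their means over 8 muscle fibre markers were 12.97 to 13.13, close to the 13.09 of replicate 2, against 13.45 to 13.49 in the other 4. Mstn-null calls in the class II set and in the gene lists are also given without these 3, a choice made after seeing the data. Other results that rest on the Mstn-null arrays are given with them only.

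MHC class II molecules are surface receptors that hold peptides from engulfed material and show them to CD4+ T cells. They are made mainly by dendritic cells, macrophages and B cells, which in muscle lie between the fibres. The α and β chains pair in the endoplasmic reticulum with the invariant chain, are freed of it in endosomes and then loaded with peptide. In whole muscle RNA, more cells of a type and more RNA per cell cannot be told apart.

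Most of the set lies in the mouse MHC on chromosome 17. In the assembly GRCm38.p6, H2-Ab1, encoding the β chain of the I-A molecule, spans chr17:34263227-34269418, and H2-Aa, encoding its α chain, spans chr17:34282744-34287823. H2-Eb1, encoding the β chain of the I-E molecule, spans chr17:34305867-34316674. H2-DMa and H2-DMb1, at chr17:34119693-34139101 and chr17:34153191-34160229, encode the chains of the H2-DM chaperone that exchanges peptides. Cd74, the invariant chain, lies outside the MHC. Ciita, the transcriptional coactivator that switches class II genes on, spans chr16:10480014-10531064, and Cd86, a costimulatory ligand for T cells, spans chr16:36568956-36666158.

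Class II promoters are known for an X box and a Y box, where the RFX and NF-Y proteins assemble and recruit the CIITA protein. RefSeq promoter sequences of GRCm38.p6 were matched by symbol for 4 of the 8 genes, H2-Aa, H2-Eb1, H2-DMa and H2-DMb1. The 250 bases before each start were searched on both strands for the Y box letters CTGATTGG and for the core of the X box, and the matches found do not overlap each other. The 150 bases before the start of the 2 genes with a match are shown, with matches in capitals (in H2-Eb1 the X box core comes first and the Y box second).
H2-Aa, chr17:34287824-34287973, minus strand: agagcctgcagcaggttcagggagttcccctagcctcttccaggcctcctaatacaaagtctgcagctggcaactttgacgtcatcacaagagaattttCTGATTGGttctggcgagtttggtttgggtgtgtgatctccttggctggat
H2-Eb1, chr17:34305717-34305866, plus strand: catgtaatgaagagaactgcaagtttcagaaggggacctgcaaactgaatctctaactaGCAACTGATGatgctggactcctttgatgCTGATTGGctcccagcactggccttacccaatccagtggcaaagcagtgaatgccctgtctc
The Y box letters began at base -51 of H2-Aa and at base -62 of H2-Eb1, and 3.83% of 32851 promoter windows of that length held them. The X box core began at base -91 of H2-Eb1, and 0.161% of the windows held it. These letters were not in the windows of H2-DMa or H2-DMb1, and those of the X box core were not in that of H2-Aa. Only these exact letters were sought, so a window without them may still hold another form of either box.

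After 4 doses of ActRIIB-Fc, transcripts of the class II chains and of the invariant chain were higher than in control muscle in experiment 2. H2-Aa, H2-Ab1, H2-Eb1 and Cd74 rose by log2 values from 0.43 to 0.85, that is 4 of the 7 measured genes, whereas 2.62% of all genes passed the test in that comparison. H2-DMa, Ciita and Cd86 did not pass it, with log2 changes of 0.11, 0.11 and 0.19. In experiment 1, with 3 mice per class, no gene of the set passed the test. With both experiments in one fit, H2-Aa and H2-Ab1 rose.

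H2-Aa had log2 values of 7.84, 8.09, 7.44, 8.04 and 8.07 in the 5 controls of experiment 2. After 4 doses its values were 8.56, 8.72, 8.54, 9.07 and 8.82. All 5 treated mice lay above all 5 controls. The rise was 0.85 ± 0.18 (SE) on the log2 scale (limma, Benjamini-Hochberg adjusted p = 0.00789). H2-Ab1, the partner chain, had control values of 7.61, 7.56, 6.78, 7.51 and 7.60, against 8.11, 7.98, 8.12, 8.36 and 8.28 after 4 doses. These groups did not overlap either, and the third control mouse stood well below the other 4. H2-Ab1 rose by 0.76 ± 0.16 (SE; limma adjusted p = 0.00676).

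H2-Eb1, the β chain of I-E, read 7.32, 7.43, 6.97, 7.43 and 7.34 in these controls and 7.78, 7.65, 7.55, 7.88 and 7.79 after 4 doses. The rise was smaller, at 0.43 ± 0.11 (SE; limma adjusted p = 0.0317), and the groups again did not overlap. Cd74 had control values of 7.56, 7.32, 6.66, 7.37 and 7.65 and values of 8.00, 8.24, 7.85, 8.30 and 8.23 after 4 doses. The third control mouse was the lowest for Cd74 too, and every treated mouse was above every control. Cd74 rose by 0.81 ± 0.18 (SE; limma adjusted p = 0.00905). Over all genes, 4.15% had every 4-dose array above every control array in experiment 2, against 4 of the 7 in the set. These 4 genes varied together among mice of a class, as described below, so their separations are not independent.

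The calls of H2-Aa, H2-Ab1 and Cd74 in experiment 2 held when any single array was left out, with adjusted p-values of at most 0.0361, 0.0273 and 0.0384, each reached without control replicate 3. H2-Eb1 did not pass without control replicate 1, 3 or 5 or 4-dose replicate 1, 2, 4 or 5, with changes of 0.35 to 0.45 and adjusted p-values from 0.0537 to 0.132. It also did not pass with each array centred on its median (0.39, adjusted p = 0.0929).

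**Figure D1:**
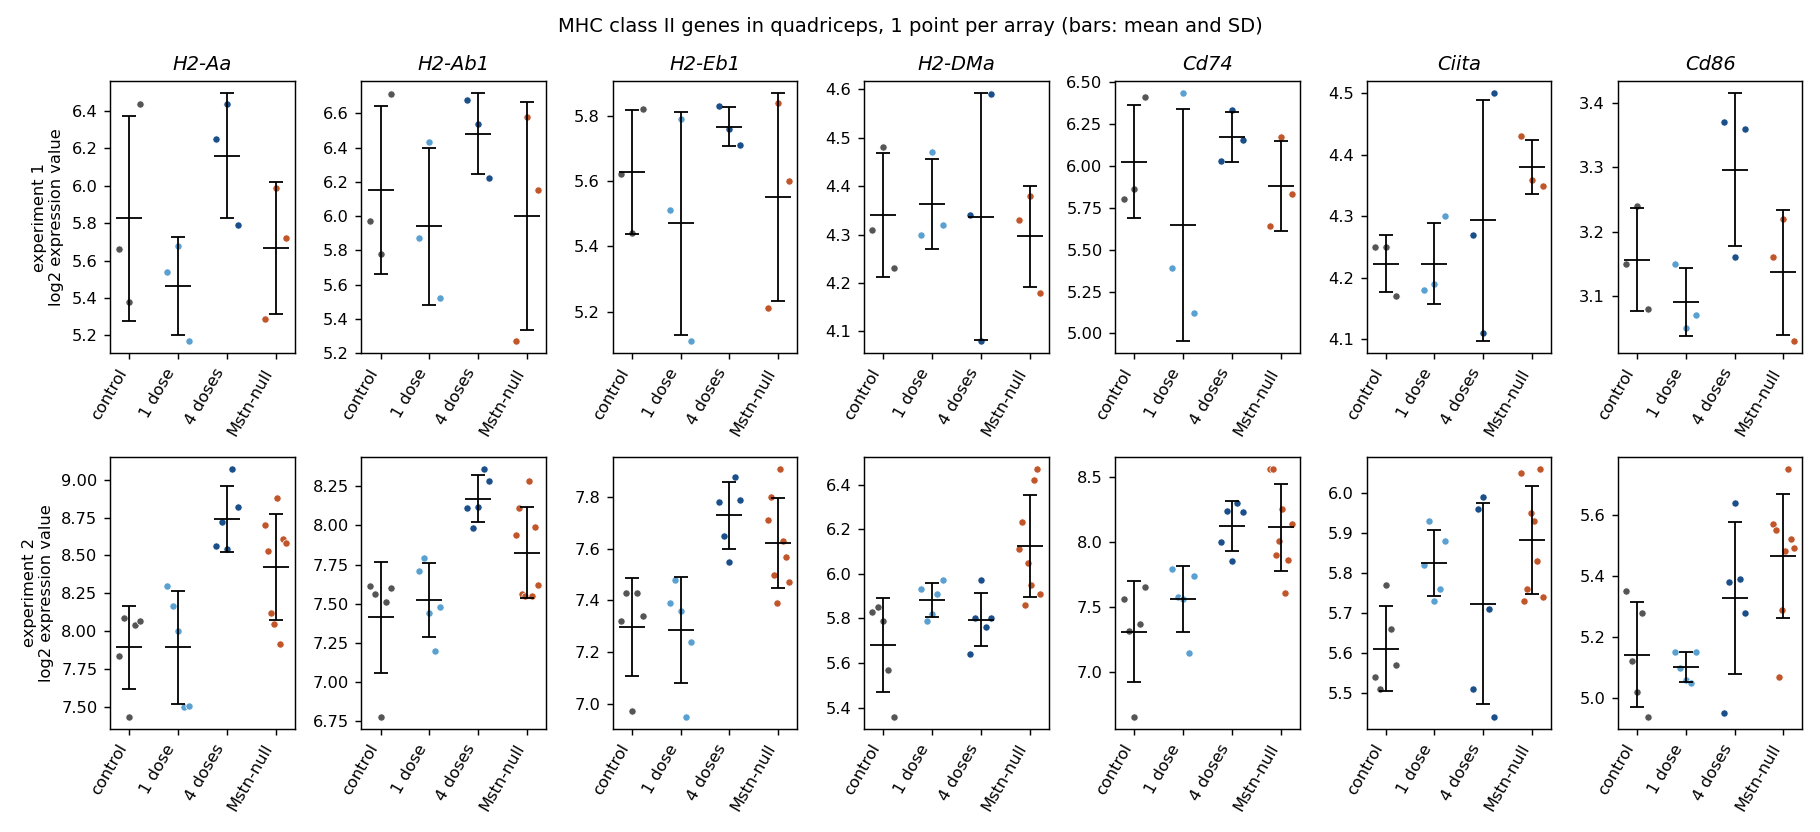
Log2 expression value (vertical axis, a separate scale in each panel) of the 7 measured class II genes on each array, by class, with experiment 1 in the upper row (n = 3 per class) and experiment 2 in the lower row (n = 5, or 8 for Mstn-null). Points are arrays and bars give the mean and SD. In experiment 2 the 4-dose points of H2-Aa, H2-Ab1, H2-Eb1 and Cd74 lie above all control points.

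H2-DMa, Ciita and Cd86 did not pass the test after 4 doses. They also had the lower levels: in experiment 2 controls their means lay above 34.7%, 33.1% and 23.9% of all genes. Those of H2-Aa, H2-Ab1, H2-Eb1 and Cd74 lay above 77.1%, 69.6%, 67.7% and 68.0%. The part of signal level in this division was not tested. H2-DMa, the α chain of the peptide-exchange chaperone, ranged from 5.64 to 5.97 after 4 doses and from 5.36 to 5.85 in controls of experiment 2. Ciita ranged from 5.44 to 5.99 after 4 doses, a range that enclosed all 5 control values, 5.51 to 5.77. Cd86 ranged from 4.95 to 5.64, against 4.94 to 5.35 in controls. The groups overlapped for all 3 genes.

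In experiment 1 the same comparison gave smaller values with wider errors. H2-Aa had control values of 5.66, 5.38 and 6.44 and values of 6.25, 6.44 and 5.79 after 4 doses, and H2-Ab1 had 5.97, 5.78 and 6.71 against 6.68, 6.54 and 6.22. The third control mouse was as high as, or higher than, every treated mouse for both genes, so the groups overlapped. The changes were 0.33 ± 0.26 (SE) for H2-Aa, 0.33 ± 0.32 for H2-Ab1, 0.14 ± 0.18 for H2-Eb1 and 0.15 ± 0.27 for Cd74 on the log2 scale, and 0 of 7 passed (limma), whereas 0.266% of all genes did. At an unadjusted p under 0.05 the count in the set was also 0. The change after 4 doses in experiment 2 exceeded that in experiment 1 by 0.52 ± 0.32 (SE) for H2-Aa and 0.67 ± 0.33 for Cd74, and no gene of the set passed the test of that difference (limma adjusted p = 0.769 and 0.677), which 1 gene of all passed (0.00502%). For 1 dose against control the difference between experiments passed for 0 of 7 genes (limma), with 0 of them at an unadjusted p under 0.05, and for 0 of all genes.

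With both experiments in the fit, H2-Aa rose by 0.66 ± 0.16 (SE; limma adjusted p = 0.015) and H2-Ab1 by 0.60 ± 0.16 (adjusted p = 0.0317), 2 of 7 against 3.14% of all genes. Cd74 at 0.56 ± 0.17 (adjusted p = 0.0652) and H2-Eb1 at 0.32 ± 0.10 (adjusted p = 0.0794) did not pass. The median change of the 7 genes was 0.32, and that of all genes was 0.02. Without control replicate 3 of experiment 2 neither gene passed, at 0.57 for H2-Aa (adjusted p = 0.0526) and 0.49 for H2-Ab1 (adjusted p = 0.0987). H2-Ab1 also did not pass without control replicate 2 or 4-dose replicate 1 of experiment 1, or without control replicate 4 or 4-dose replicate 3, 4 or 5 of experiment 2 (adjusted p from 0.0534 to 0.0707). Without control replicate 3 of experiment 1 the count was 4, with Cd74 at 0.68 and H2-Eb1 at 0.37.

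A single dose of ActRIIB-Fc was followed by no called change in the set. In experiment 2 the values of H2-Aa were 8.30, 8.17, 8.00, 7.50 and 7.51. Its lowest mouse lay within the range of the controls, and its highest 2 lay above it. Cd74 had 7.79, 7.58, 7.56, 7.15 and 7.74 after 1 dose, and H2-Eb1 had 7.39, 7.48, 7.36, 6.95 and 7.24. The changes against control in experiment 2 ran from -0.04 for Cd86 to 0.25 ± 0.18 (SE) for Cd74, and 0 of 7 passed (limma), against 1.23% of all genes. At an unadjusted p under 0.05 only Ciita passed (0.21 ± 0.10). In experiment 1 the changes ran from -0.37 ± 0.27 for Cd74 to 0.03 for H2-DMa with 0 of 7 called (limma), against 0.0251% of all genes. With both experiments they ran from -0.14 to 0.14, and 0 of 7 passed, against 1.11% of all genes. The count at an unadjusted p under 0.05 was 0 in each of these fits.

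Muscle after 4 doses was also compared directly with muscle after 1 dose. H2-Aa was higher after 4 doses by 0.85 ± 0.18 (SE) in experiment 2 (limma adjusted p = 0.0431), the only 1 of the 7 to pass, where 0.211% of all genes passed. In experiment 2 all 5 mice given 4 doses lay above all 5 given 1 dose for H2-Aa, H2-Ab1, H2-Eb1 and Cd74, a separation that 1.19% of all genes showed. These 4 genes varied together among mice of a class, so they are not 4 separate observations. The changes of H2-Ab1, H2-Eb1 and Cd74 were 0.65 ± 0.16, 0.45 ± 0.11 and 0.56 ± 0.18, and they did not pass (adjusted p = 0.113, 0.118 and 0.34). H2-Ab1 did pass without control replicate 3 (0.65, adjusted p = 0.0342). H2-DMa and Ciita had changes of -0.09 and -0.10, and Cd86 had 0.23.

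In experiment 1, H2-Aa had values of 5.54, 5.68 and 5.17 after 1 dose, all below its values after 4 doses. Cd86, at 3.15, 3.05 and 3.07 after 1 dose and 3.37, 3.16 and 3.36 after 4, did not overlap either, which made 2 of 7 genes against 7.51% of all genes. The change of H2-Aa between the doses was 0.70 ± 0.26 (SE) in that experiment, close in size to that in experiment 2, and 0 of 7 passed (limma), against 0.241% of all genes. H2-Aa was the 1 gene of the set with an unadjusted p under 0.05 there. With both experiments H2-Aa passed at 0.79 ± 0.16 (SE; limma adjusted p = 0.0163), 1 of 7 against 0.321% of all genes. That call was lost without 1-dose replicate 3 of experiment 1 (0.75, adjusted p = 0.0542) or 4-dose replicate 4 of experiment 2 (0.74, adjusted p = 0.0554). The count was 2 without Mstn-null replicate 1 of experiment 1, with H2-Ab1 at 0.61 (adjusted p = 0.0457), or without its 1-dose replicate 2, with H2-Eb1 at 0.44 (adjusted p = 0.0446). In experiment 2 alone it was lost without any of 12 arrays, namely control replicates 1, 2, 4 and 5, 4-dose replicates 1, 2, 4 and 5, 1-dose replicates 3, 4 and 5 and Mstn-null replicate 7, with changes of 0.75 to 0.89 and adjusted p-values from 0.0522 to 0.205. It was also lost with each array centred on its median (0.86, adjusted p = 0.0523), after quantile normalization (0.81, adjusted p = 0.074) and among genes above the median level (0.85, adjusted p = 0.0689).

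**Figure D2:**
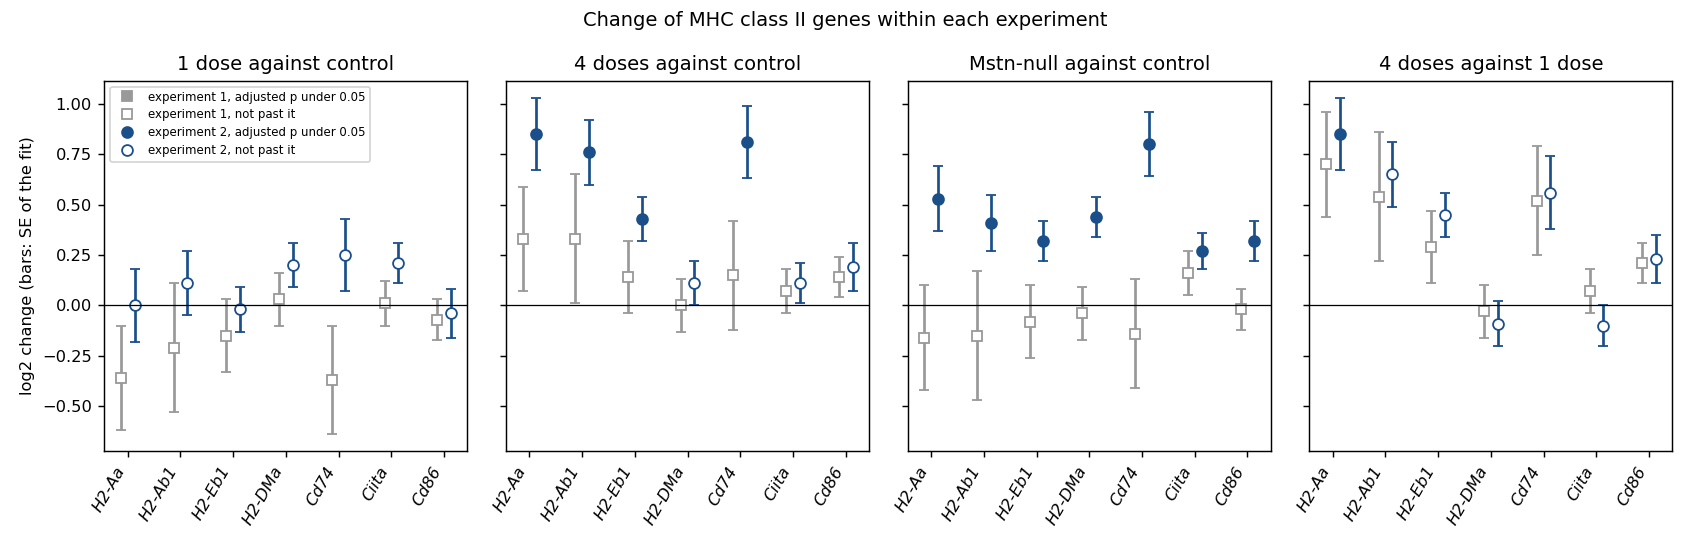
Log2 change (vertical axis) of each class II gene in 4 comparisons, fitted within experiment 1 (grey squares) and experiment 2 (blue circles), with bars for the SE of the fit. Filled symbols passed an adjusted p of 0.05 over all genes. After 4 doses H2-Aa, H2-Ab1, H2-Eb1 and Cd74 are filled in experiment 2, and no symbol of experiment 1 is filled.

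Mstn-null muscle differed from control muscle across much of the transcriptome, so the class II genes have to be read against a high background. In experiment 2 all 7 measured genes were higher in Mstn-null mice, whereas 43.9% of all genes passed in either direction and 27.4% were higher. Cd74 rose most, by 0.80 ± 0.16 (SE; limma adjusted p = 0.000557), with values from 7.61 to 8.56 and a median of 8.08 in the 8 Mstn-null mice. The others rose by log2 values of 0.27 to 0.53, with H2-Aa at 0.53 ± 0.16, H2-DMa at 0.44 ± 0.10, H2-Ab1 at 0.41 ± 0.14, H2-Eb1 and Cd86 at 0.32 ± 0.10 each and Ciita at 0.27 ± 0.09.

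The Mstn-null mice spread widely. H2-Aa ran from 7.92 to 8.88 with a median of 8.56, and H2-Ab1 from 7.55 to 8.28 with a median of 7.78, so their lowest mice lay within the control range. H2-DMa, at 5.86 to 6.47, was the only 1 of the 7 with every Mstn-null array above every control, against 8.24% of all genes. The median of all genes shifted by 0.11 in this comparison, and 2 of the 7 genes passed once the arrays were centred on their medians. With the interquartile range of each array as a covariate, an alternative chosen after seeing the data, 1 of the 7 passed. Without control replicate 3, 4 of the 7 passed: H2-Aa at 0.41 (adjusted p = 0.0509), H2-Ab1 at 0.26 (0.112) and H2-Eb1 at 0.24 (0.0573) did not. Ciita did not pass without control replicate 2 (0.25, adjusted p = 0.0511), nor Cd86 without control replicate 5 (0.27, adjusted p = 0.0599). Without Mstn-null replicates 6, 7 and 8, 6 of the 7 passed, against 33.6% of all genes, with Cd74 at 0.94 and H2-DMa at 0.36, and Cd86 at 0.25 (adjusted p = 0.0937) did not.

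In experiment 1 the Mstn-null changes of 6 of the 7 genes were negative, each smaller than its SE, and that of Ciita was positive. H2-DMa (-0.04) and Cd86 (-0.02) were near 0, and none passed the test. The changes were -0.16 ± 0.26 (SE) for H2-Aa, -0.15 ± 0.32 for H2-Ab1, -0.14 ± 0.27 for Cd74 and 0.16 ± 0.11 for Ciita, and 0 of 7 genes passed (limma), against 2.39% of all genes. The count at an unadjusted p under 0.05 was also 0. Ciita, at 4.43, 4.36 and 4.35, was above its 3 controls, at 4.25, 4.25 and 4.17, and 11.6% of all genes were separated in this way. The change in experiment 2 exceeded that in experiment 1 by 0.94 ± 0.32 (SE) for Cd74 and 0.69 ± 0.31 for H2-Aa. None of the 7 passed the test of that difference (limma adjusted p = 0.0917 for Cd74), which 1.68% of all genes passed, and 5 of the 7 had an unadjusted p under 0.05.

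With both experiments Cd74 (0.49 ± 0.16, limma adjusted p = 0.0162), H2-DMa (0.29 ± 0.09, 0.00933), Ciita (0.23 ± 0.07, 0.00763) and Cd86 (0.22 ± 0.08, 0.0306) rose in Mstn-null muscle, 4 of 7 against 41.8% of all genes. That share is near the background of calls in either direction. All 4 rose, and the share of all genes called higher in this fit is not given. None of the 4 passed with each array centred on its median. Without control replicate 3 of experiment 2 the count was 2, with Cd74 at 0.35 (adjusted p = 0.0611) and Cd86 at 0.19 (0.0667) lost, and without Mstn-null replicate 1 of experiment 1 it was 7. Cd86 was also lost without control replicate 2 or 5 or Mstn-null replicate 1 or 6 of experiment 2 (adjusted p from 0.0505 to 0.0837). Without Mstn-null replicates 6, 7 and 8 of experiment 2, Cd74 (0.54) and Ciita (0.23) passed, 2 of 7 against 28.4% of all genes, and H2-DMa (0.21, adjusted p = 0.0518) and Cd86 (0.15, adjusted p = 0.166) did not.

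Set against Mstn-null muscle in experiment 2, muscle after 4 doses differed in Cd74 by 0.01 ± 0.16 (SE) and was lower in H2-DMa (-0.33 ± 0.10, limma adjusted p = 0.0194). H2-DMa was the 1 gene of 7 that passed, against 28.7% of all genes, and it was lost without 4-dose replicate 1 (-0.29, adjusted p = 0.066). The count was 2 without control replicate 3 or Mstn-null replicate 5. With both experiments 0 of 7 passed (limma), against 20.2% of all genes, while 3 had an unadjusted p under 0.05. The count there was 1 to 3 without control replicate 3, 4-dose replicate 3 or Mstn-null replicate 2 or 3 of experiment 1 or Mstn-null replicate 5 of experiment 2. After 1 dose, Cd74, Cd86, H2-Aa and H2-Eb1 were lower than in Mstn-null muscle in experiment 2, by log2 changes of -0.55, -0.36, -0.53 and -0.34. That was 4 of 7 genes against 13.1% of all genes, with 2 passing without Mstn-null replicate 1 or 1-dose replicate 2 or 5, and 0 without 1-dose replicate 3 or 4. With both experiments 3 of 7 passed, Cd74 (-0.47), Cd86 (-0.27) and H2-Aa (-0.44), against 16.8% of all genes. Cd86 passed there without any single array, and Cd74 and H2-Aa lost their calls in 10 and 11 of 35 such fits. The count fell to 1 without any of 9 arrays, namely Mstn-null replicate 2 and 1-dose replicates 1 and 3 of experiment 1, and Mstn-null replicates 1, 2, 5 and 8 and 1-dose replicates 3 and 4 of experiment 2. In experiment 1, 0 of 7 passed in either comparison, against 0.015% of all genes for 4 doses and 2.01% for 1 dose, and no gene of the set had an unadjusted p under 0.05. Without Mstn-null replicates 6, 7 and 8 of experiment 2, the counts were 0 for 4 doses (18.7% of all genes) and 1 for 1 dose (5.2%) in experiment 2, where Cd74 was the gene that passed, and 0 for both with both experiments (8.11% and 7.65%). These comparisons share the Mstn-null arrays with those above.

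Mice of the same class that were high in 1 class II chain were high in the others. Each value was taken as its deviation from the mean of its group, and the 21 pairs of genes were correlated over the 23 arrays of experiment 2. The 6 pairs among H2-Aa, H2-Ab1, H2-Eb1 and Cd74 had Pearson's r from 0.65 to 0.86 and Spearman's rho from 0.59 to 0.80, and all 6 passed the permutation test (100000 resamples, two-sided, Benjamini-Hochberg adjusted p of at most 0.00241 for r). The closest pair was H2-Ab1 with H2-Eb1 (r = 0.86, permutation p = 1e-05, the smallest these resamples can give). Without the 2 arrays farthest from the median of the first gene, r of the 6 pairs was 0.45 to 0.80. In experiment 1, over 12 arrays, it was 0.68 to 0.94.

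The remaining genes did not follow the class II chains. The 12 pairs between those 4 genes and H2-DMa, Ciita or Cd86 had r from -0.31 to 0.25 in experiment 2 and from -0.71 to 0.08 in experiment 1, and 0 of the 12 passed in experiment 2. Among H2-DMa, Ciita and Cd86, H2-DMa with Cd86 passed (r = 0.62, rho = 0.53, permutation adjusted p = 0.00459). The division into 4 and 3 genes was made after seeing these values and describes them only. The 3 genes also had the lower levels, and the part of signal level was not tested. All points share their array's normalization.

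**Figure D3:**
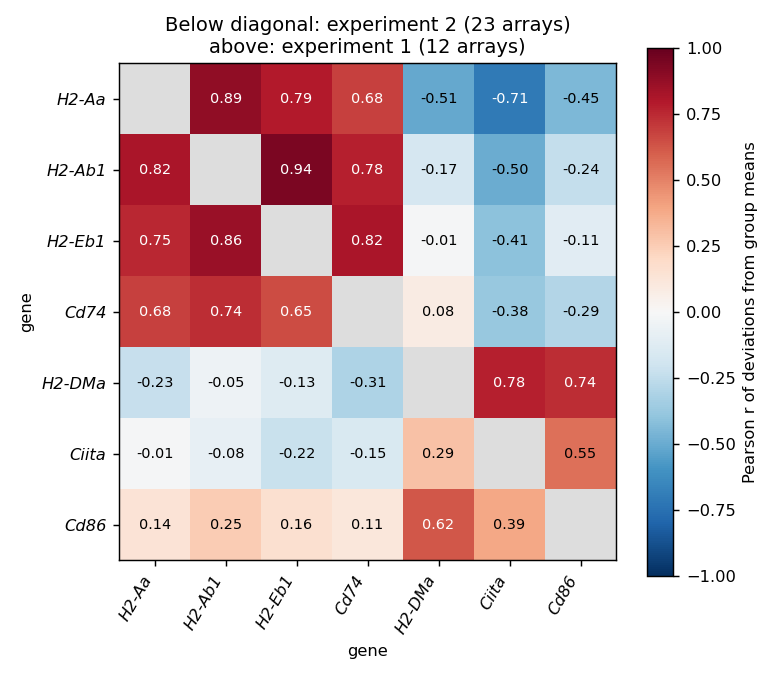
Pearson's r between the class II genes (both axes) of the deviations from group means, for experiment 2 below the diagonal (23 arrays) and experiment 1 above it (12 arrays). Red marks positive and blue negative values. The block of H2-Aa, H2-Ab1, H2-Eb1 and Cd74 holds values from 0.65 to 0.94.

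Outside the set, the 5 genes whose deviations followed the mean deviation of the 7 most closely in experiment 2 were Pltp (r = 0.82), Cd300ld (0.82), Plat (0.77), Folr2 (0.77) and C1qc (0.77), over 23 arrays. They were picked from all genes for this likeness, so r carries no test. Within the set, H2-DMa, Ciita and Cd86 had r of -0.04, 0.02 and 0.37 with the mean of the other members over these arrays. For H2-Aa, H2-Ab1, H2-Eb1 and Cd74 it was 0.69, 0.83, 0.72 and 0.57. In experiment 1 the same genes had r of 0.84, 0.21, 0.64, 0.77 and 0.80 over 12 arrays. C1qc, a chain of complement C1q, rose by 0.54 ± 0.14 (SE) after 4 doses with both experiments (limma adjusted p = 0.0244), and Plat, tissue plasminogen activator, by 0.37 ± 0.10 (adjusted p = 0.038). Pltp (-0.14), Cd300ld (0.36) and Folr2 (0.15) did not pass. In Mstn-null muscle, with both experiments, Pltp rose by 0.31 (limma adjusted p = 0.00917) and Plat by 0.35 (adjusted p = 0.00498). Cd300ld (0.05), Folr2 (0.07) and C1qc (0.13) did not pass there.

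Genes that act beside the class II molecules gave mixed results after 4 doses, with both experiments in the fit, where 3.14% of all genes passed. Of 11 measured accessory genes, 2 rose: Ctss, cathepsin S, which trims the invariant chain, by 0.73 ± 0.17 (SE; limma adjusted p = 0.00756), and Lgmn, an endosomal protease, by 0.56 ± 0.11 (adjusted p = 0.00205). Their median change was 0.13. Ifi30, a thiol reductase of antigen processing, changed by 0.23, and H2-Ob, a chain of the H2-O modulator of H2-DM, by 0.14, and neither passed. In experiment 2 Ctss was at 1.0 ± 0.20 after 4 doses against control and at 0.74 ± 0.20 against 1 dose, where it did not pass (adjusted p = 0.197).

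The regulators upstream showed few calls. None of 7 genes of the class II promoter complex passed after 4 doses (limma; 0 at an unadjusted p under 0.05), with a median of -0.03 and Rfxap, a subunit of RFX, at -0.16. In Mstn-null muscle, where 41.8% of all genes passed, 2 of these 7 fell, Nfyb, a subunit of NF-Y, by 0.87 (adjusted p = 0.000168) and Rfxap by 0.35 (adjusted p = 0.00105). Of 8 genes of the interferon gamma route, 1 rose after 4 doses, the kinase Jak1 by 0.27 ± 0.08 (adjusted p = 0.0435). Irf1 (0.14), Ifngr2 (0.20) and Socs1 (0.19) did not pass. In Mstn-null muscle 4 of the 8 rose, Irf1 by 0.31, Socs1 by 0.41, Jak1 by 0.17 and Ifng, the cytokine itself, by 0.20. That share is near the 41.8% called in either direction. The other 4 had changes of 0 or below, and the median was 0.07 against 0.09 over all genes. In experiment 2 alone Jak2, a kinase of the receptor, fell by 0.63 and Ifngr1, a receptor chain, by 0.27. Without Mstn-null replicates 6, 7 and 8, 2 of the 8 rose with both experiments, Irf1 by 0.28 and Socs1 by 0.34. Jak1 (0.18, adjusted p = 0.0707) and Ifng (0.18, adjusted p = 0.0895) did not pass. In experiment 2 alone Jak2 then still fell, by 0.60 (adjusted p = 0.0441). Ifngr1 did not pass there (-0.28, adjusted p = 0.0697).

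Genes of the MHC class I route, which presents peptides to CD8+ T cells, had 0 of 9 calls after 4 doses. The test was limma, with 2 at an unadjusted p under 0.05 and a median of 0.03. Of 12 listed genes these 9 were measured, and none of them encodes a class I heavy chain. The response of the heavy chains is therefore not shown. B2m, the class I light chain, changed by 0.41 ± 0.19 (SE, adjusted p = 0.308), and Nlrc5, the class I coactivator, by 0.27 (adjusted p = 0.104). In Mstn-null muscle 2 of the 9 rose, Nlrc5 by 0.57 (adjusted p = 8.18e-06) and Psmb8, an immunoproteasome subunit, by 0.21 (adjusted p = 0.0472), a share below the 41.8% of all genes. Of 9 costimulation genes, 1 rose after 4 doses, Cd28, the T cell receptor for Cd86, by 0.35 (adjusted p = 0.0298). Cd28 was also higher in Mstn-null muscle, by 0.57, and Cd40lg by 0.24, 2 of 9, also a share below that of all genes. After 1 dose none of the genes in these 5 lists passed with both experiments (limma). At an unadjusted p under 0.05 the counts after 1 dose were 3 of the accessory genes, 0 of the promoter complex, 2 of the interferon gamma route, 1 of class I and 2 of costimulation.

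Among markers of the cells that carry class II, those of macrophages were called most often after 4 doses. Of 12 macrophage markers, 6 rose with both experiments (median 0.54), against 3.14% of all genes, among them Cd68 by 0.68 ± 0.14 (SE), C1qb by 0.68 ± 0.16, Adgre1 by 0.56 ± 0.13 and Csf1r by 0.55 ± 0.14 (limma adjusted p from 0.00298 to 0.0182). The mean log2 value of this list in experiment 2 ran from 6.58 to 6.87 in controls, from 6.73 to 7.44 after 1 dose, from 7.28 to 7.48 after 4 doses and from 6.82 to 7.51 in Mstn-null mice. The 4-dose arrays were all above the controls, as they were for 4.15% of single genes, and the 1-dose arrays reached from within the control range to the 4-dose range. The share of list means that separate in this way was not computed, and that of single genes is not a like measure. In experiment 1 the list mean ran from 4.73 to 5.39 in controls and from 5.08 to 5.37 after 4 doses, and 0 of 12 markers passed (limma; 1 at an unadjusted p under 0.05). The part of the macrophage markers in the class II values was not tested.

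After 1 dose the macrophage markers had larger changes than the class II chains in experiment 2. There the markers had a median change of 0.56, 11 of 12 were positive and 2 passed, Csf1r at 0.63 ± 0.16 (SE; limma adjusted p = 0.0429) and C1qa at 0.58 ± 0.13 (adjusted p = 0.0223). C1qb at 0.70 ± 0.18 (adjusted p = 0.0507) and Cd68 at 0.65 ± 0.17 (adjusted p = 0.0612) did not. The same arrays gave H2-Aa a change of 0.00 ± 0.18, H2-Ab1 0.11 ± 0.16, H2-Eb1 -0.02 ± 0.11 and Cd74 0.25 ± 0.18. In experiment 1 the median of the markers after 1 dose was 0.07 and 0 of 12 passed (limma; 0 at an unadjusted p under 0.05). With both experiments it was 0.37 and 0 of 12 passed (limma), with 8 at an unadjusted p under 0.05. From 1 dose to 4 doses the markers' median change was 0.16 and 0 of 12 passed (limma; 1 at an unadjusted p under 0.05), where H2-Aa, H2-Ab1, Cd74 and H2-Eb1 changed by 0.85, 0.65, 0.56 and 0.45. The difference between marker and class II changes was not tested.

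Other markers gave fewer calls after 4 doses, set against the 3.14% of all genes. Of 10 dendritic cell markers 1 rose, Itgax by 0.35 ± 0.10 (SE; limma adjusted p = 0.0398), with a median of 0.09. None of 7 B cell markers, 8 T cell markers, 6 neutrophil markers or 6 endothelial markers passed (limma), with medians of 0.09, 0.06, 0.05 and 0.14. At an unadjusted p under 0.05 the counts were 0, 1, 0 and 0. In experiment 2 the mean log2 value of the dendritic cell list ran from 5.66 to 5.86 after 4 doses and from 5.57 to 5.69 in controls, and that of the B cell list from 4.91 to 5.17 and from 4.88 to 5.06, so both overlapped. Of 8 muscle fibre markers 1 fell, Mb, the oxygen store myoglobin, by 0.94 ± 0.24 (adjusted p = 0.0217), and the rest did not pass.

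In Mstn-null muscle some markers of each immune list were called with both experiments, where 41.8% of all genes were called in either direction. They were 6 of 10 dendritic cell markers, with Irf8 at 0.36, Itgax at 0.39 and Batf3 at 0.32, 5 of 12 macrophage markers, 5 of 8 T cell markers, 4 of 6 neutrophil markers and 2 of 7 B cell markers. The macrophage share was near that 41.8%, and the B cell share was below it. All these markers were called higher, and the share of all genes called higher in this fit is not given. The macrophage markers that rose were Csf1r (0.48), Adgre1 (0.37), Cd68 (0.36), Itgam (0.35) and Fcgr1 (0.25). Those of T cells were Cd8a (0.33), Cd2 (0.32), Cd5 (0.27), Cd8b1 (0.25) and Cd3g (0.18). The neutrophil genes S100a9 (0.27), Camp (0.26), Ngp (0.23) and Csf3r (0.19) and the B cell genes Pax5 (0.29) and Cd22 (0.25) made up the rest. In experiment 2 the dendritic cell list mean ran from 5.81 to 6.03 in Mstn-null mice and from 5.57 to 5.69 in controls, and that of T cells from 5.56 to 5.85 against 5.34 to 5.46. Those ranges did not overlap, and for 8.24% of single genes every Mstn-null array was above every control. No such share was computed for list means. Mstn-null replicates 6, 7 and 8 had the highest dendritic cell means, 6.01 to 6.03, and replicates 6 and 7 the highest T cell means, 5.78 and 5.85, and the highest H2-DMa values, 6.42 and 6.47. Without these 3 arrays and with both experiments, 4 dendritic cell, 4 macrophage, 4 T cell, 2 neutrophil and 2 B cell markers were called higher. Over all genes 28.4% were then called in either direction and 15.7% were called higher. Of 6 endothelial markers 3 fell, Egfl7 and Emcn by 0.68 each and Pecam1 by 0.59 (adjusted p from 3.12e-05 to 0.00533). Of 8 muscle fibre markers, Mb fell by 1.66 (adjusted p = 3.01e-06) and Myh1, a fast myosin heavy chain, by 0.42, and Actn3, an actin cross-linker of fast fibres, rose by 0.15. Without the 3 arrays 2 endothelial and 2 fibre markers fell and 1 fibre marker rose. In experiment 2 controls the named immune markers that rose lay above 12.3% (Ngp) to 58.1% (Csf1r) of all genes. The endothelial and fibre genes that fell lay above 78.4% (Emcn) to 99.8% (Myh1), and Actn3, which rose, was also bright. The Mstn-null arrays of that experiment had narrower interquartile ranges than its controls. These lists are not given with centring or that range as a covariate, and the part of signal level was not tested. The part of these markers in the Mstn-null class II values was not tested either.

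**Figure D4:**
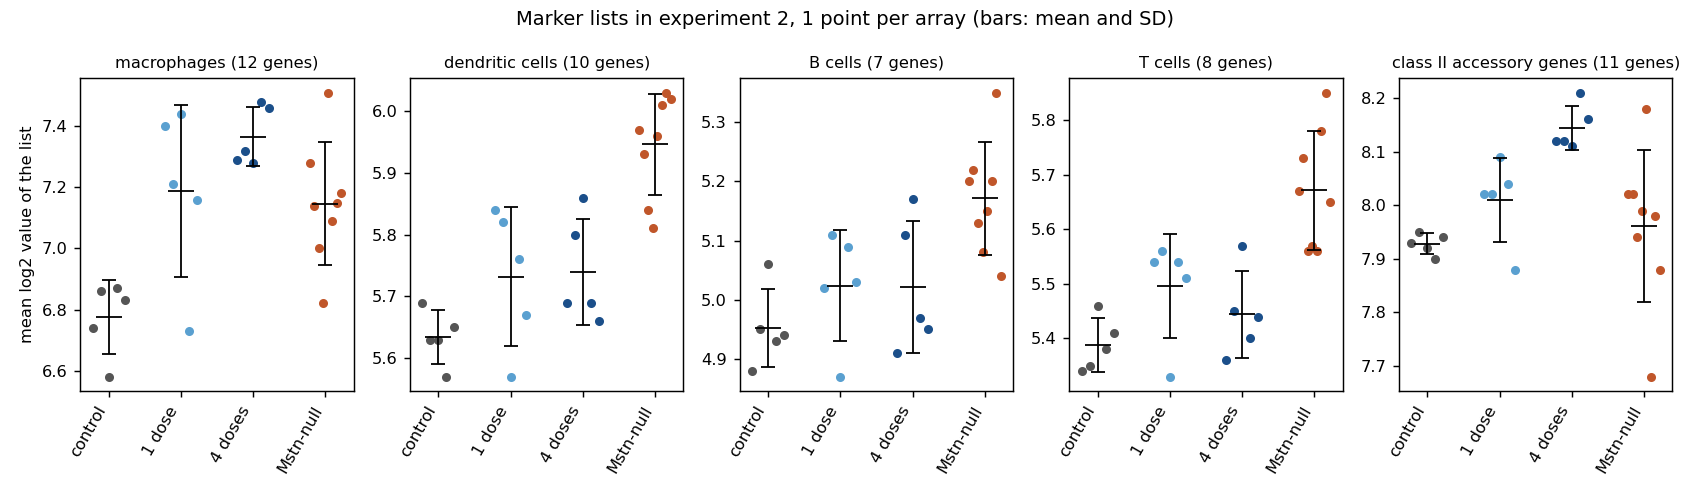
Mean log2 value (vertical axis, a separate scale in each panel) of 4 cell marker lists and of the class II accessory genes on each array of experiment 2, by class (n = 5, or 8 for Mstn-null), with bars for the mean and SD. The macrophage list runs from 7.28 to 7.48 after 4 doses, above the 6.58 to 6.87 of controls, and the dendritic and T cell lists have their highest means in Mstn-null arrays.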

How the data were processed

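RNA from quadriceps was measured on 35 arrays. The table the authors deposited holds log2 values. RMA, limma 3.4.4 and R 2.11.1 are named per the submitters' processing notes, with no step assigned to each. Whether both experiments were normalized together and the probe design's build are not given in the sources used here. Of 35556 rows, 21789 carried 1 gene symbol, 1621 several and 12146 none. Rows with 1 symbol were used, and for 999 genes with more rows the one with the highest mean was kept, with no filter on dim genes. limma 3.58.1 in R 4.3.3 (lmFit, eBayes, two-sided) fitted class and experiment over all arrays, and class within each experiment alone. p-values were Benjamini-Hochberg adjusted over 19938 genes, and adjusted p under 0.05 was called. The fits were tested on simulated data first. Alternatives covered scaling, covariates, filter, row choice, eBayes settings, each array left out and, added after seeing the data, 3 Mstn-null arrays left out together.

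The members and the 12 lists (109 genes, 101 measured) were chosen with earlier results of these data known. Named were the members, Mstn, for each list up to 4 genes with the smallest p for 4 doses against control, and the 5 genes most like the members. List genes that make up a count of 5 or fewer outside this rule, were named after their values were seen. Deviations of same-numbered arrays correlated with both signs, with r from -0.60 to 0.38 in experiment 2 and from -0.53 to 0.41 in experiment 1. In experiment 2, 11 of 30 such pairs had r over 0.1, and in experiment 1, 7 of 18 had. Pairs with different numbers are not given beside them. Replicate numbers were not taken as pairs in the main fits. Within groups, arrays correlated between 0.954 and 0.996 across genes.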

Additional observations from a re-analysis of the deposited data

Results flagged for a closer look

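In experiment 2, control replicate 3 stood apart from the other controls for H2-Ab1, at 6.78 where the nearest control was at 7.51, a gap of 0.87 of the group's range. The same array stood apart for H2-Eb1, at 6.97 where the nearest control was at 7.32, a gap of 0.76 of the range. Dixon's critical value for 5 arrays is 0.71. These were 2 of 28 group checks, and chance flags about 1 in 20. Both flags come from 1 mouse, which was also the lowest control for H2-Aa at 7.44 and Cd74 at 6.66, and the results without it are given beside the calls it changes.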

How the results depend on the processing

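With both experiments, centring each array on its median gave 0 genes for Mstn-null against control, 1 for 4 doses against control, 1 for 4 doses against Mstn-null and 0 for 1 dose against Mstn-null. With the interquartile range of each array as a covariate, Mstn-null against control gave 0, 4 doses against control 4, 4 doses against 1 dose 3 and 1 dose against Mstn-null 0. The replicate block gave 2 for Mstn-null against control and 0 for 1 dose against Mstn-null, and among genes above the median level Mstn-null against control gave 1. In experiment 2, centring gave 2 for Mstn-null against control, 0 for 4 doses against 1 dose and 1 for 1 dose against Mstn-null. Quantile normalization gave 0 for 4 doses against either 1 dose or Mstn-null, the replicate block gave 0 for 4 doses against Mstn-null and 1 for 1 dose against Mstn-null, and among genes above the median level the counts were 4 for Mstn-null against control and 0 for 4 doses against either 1 dose or Mstn-null. The interquartile range covariate, chosen there after seeing the data, gave 1 for Mstn-null against control, 0 for 4 doses against Mstn-null and 0 for 1 dose against Mstn-null. Leaving out Mstn-null replicates 6, 7 and 8 of experiment 2, also chosen after seeing the data, gave 2 for Mstn-null against control and 0 for 1 dose against Mstn-null with both experiments, and 0 for 4 doses and 1 for 1 dose against Mstn-null in experiment 2. The cause was not tested. The count for 4 doses against control in experiment 2 stayed between 3 and 4 under every alternative run.

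Leaving out 1 array at a time with both experiments, the counts ran from 2 to 7 for Mstn-null against control, 0 to 4 for 4 doses against control, 0 to 2 for 4 doses against 1 dose, 0 to 3 for 4 doses against Mstn-null and 1 to 4 for 1 dose against Mstn-null. In experiment 2 they ran from 4 to 7 for Mstn-null against control, 0 to 2 for 4 doses against 1 dose, 0 to 2 for 4 doses against Mstn-null and 0 to 4 for 1 dose against Mstn-null. Changes near 0 turned sign. After 1 dose with both experiments, Cd74 was -0.02 when centred and -0.11 to 0.13 with 1 array left out, and H2-Ab1 was 0.01 after quantile normalization, 0.04 with the interquartile range and -0.12 to 0.11 with 1 array left out. In experiment 2 after 1 dose, H2-Aa was -0.05 when centred and -0.11 to 0.10 with 1 array left out, H2-Eb1 -0.10 to 0.07, Cd86 -0.09 to 0.01 and H2-Ab1 -0.05 to 0.19. Ciita for 4 doses against 1 dose was -0.07 to 0.01. With the interquartile range and both experiments, Cd86 in Mstn-null muscle was -0.00 and H2-DMa after 4 doses -0.01. Signal over background was not analysed here, so no limit from it is given.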
